A study of Rattus norvegicus with 8 samples.

Results

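Matrix metalloproteinases (MMPs) and the tissue inhibitors of metalloproteinases (TIMPs) were followed in ovaries of immature rats by the genes Mmp2, Mmp9, Mmp11, Mmp13, Mmp14, Mmp23, Timp1, Timp2, Timp3 and Timp4. They were chosen by gene name on a 1-colour Agilent rat expression array, where 12 of the 30350 usable probes carry these 10 of 26204 names. The labels put 4 arrays in the control group and 4 in the group given PMSG (pregnant mare serum gonadotropin), which acts on the ovary mainly like follicle-stimulating hormone. Female rats received, at an age of 26 days and under the skin, either PMSG (50 IU, dissolved in albumin phosphate buffer, volume 0.2 ml) or the buffer alone. Whole ovaries were taken 48 h later, at 28 days. The labels name no strain and do not say whether an array holds 1 rat or a pool, so p-values measure the spread between these samples, which may be technical. The comparison asks how the hormone changes ovarian transcripts.

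MMPs are zinc-dependent proteases that are made as inactive precursors and cut collagens, laminins, proteoglycans and other proteins outside the cell. TIMPs bind the active site of MMPs and block it, and Timp3 also blocks several proteases of the ADAM and ADAMTS families. In the ovary this system is known for the remodelling of the follicle wall and its basement membrane as follicles grow, rupture and turn into corpora lutea.

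All 8 arrays came from 1 slide and were scanned on 1 day. The 75th percentile of the signal ran from 769 to 1103, and between 80.8% and 84.6% of probes were well above background. The tissue label was borne out by granulosa cell (Amh, Inha, Fshr), theca cell (Insl3) and oocyte (Gdf9, Zp3) genes, all well above background on all 8 arrays. Amh, Insl3, Gdf9 and Zp3 were higher in arrays labelled PMSG, with log2 differences of 3.03, 2.60, 2.05 and 1.94. Inha (-0.39) and Fshr (0.34) did not pass the test used below. Of 7 granulosa cell markers 1 rose and 2 fell, where 17.6% of all tested probes rose and 16.6% fell. The 2 that fell were Inhba (-1.32) and Nr5a2 (-1.47). Of 3 theca cell markers 2 rose, Insl3 and Ptch1 (0.79), and Cyp17a1 (-0.22) did not pass. All 7 oocyte markers rose, where 17.6% of all tested probes did. Their summed signal, in multiples of the array's 75th percentile, was 3.26 to 5.76 on control arrays and 11.6 to 23.7 on PMSG arrays. Its part in the differences below was not tested. Lhcgr, Star and Cyp11a1, which gonadotropins are generally known to raise, were lower in arrays labelled PMSG, with log2 differences of -1.93, -2.75 and -3.36. Whether the labels of the 2 groups were exchanged was not tested. Directions below follow the labels as written, and each would turn if they were exchanged.

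RefSeq promoter sequences of build GRCr8 matched 7 of the 10 genes. The 250 bases before the annotated start are printed for Mmp13, which is the textbook example of an MMP promoter with sites for the AP-1 and RUNX factors, and for the 3 genes that differed between the labels. Capitals mark exact matches, on either strand, to AP-1 (TGAGTCA), an AP-1 variant (TGAGTAA), RUNX (ACCACA), PEA3 of the ETS family (AGGAAG), the TATA box (TATAAA) and the GC box (GGGCGG). The AP-1 and AP-1 variant letters differ at 1 base, and no 2 matches overlapped in these windows.
Mmp13, chr8:12782579-12782828, plus strand: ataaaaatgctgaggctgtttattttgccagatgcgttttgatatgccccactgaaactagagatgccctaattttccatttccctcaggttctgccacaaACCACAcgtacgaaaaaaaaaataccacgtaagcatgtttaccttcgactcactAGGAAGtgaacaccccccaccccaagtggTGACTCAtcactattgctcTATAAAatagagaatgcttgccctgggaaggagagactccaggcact
Timp1, chrX:3771123-3771372, minus strand: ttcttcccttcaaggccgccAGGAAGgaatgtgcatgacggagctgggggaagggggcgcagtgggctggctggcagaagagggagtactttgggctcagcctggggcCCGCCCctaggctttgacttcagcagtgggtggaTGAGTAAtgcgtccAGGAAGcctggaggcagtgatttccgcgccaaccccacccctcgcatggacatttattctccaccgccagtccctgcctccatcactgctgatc
Mmp11, chr20:12730034-12730283, plus strand: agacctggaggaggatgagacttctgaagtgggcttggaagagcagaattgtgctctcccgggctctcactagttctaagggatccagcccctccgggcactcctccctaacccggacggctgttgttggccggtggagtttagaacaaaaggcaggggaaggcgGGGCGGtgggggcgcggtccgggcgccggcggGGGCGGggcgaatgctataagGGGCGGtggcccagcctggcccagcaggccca
Timp4, chr4:149985205-149985454, minus strand: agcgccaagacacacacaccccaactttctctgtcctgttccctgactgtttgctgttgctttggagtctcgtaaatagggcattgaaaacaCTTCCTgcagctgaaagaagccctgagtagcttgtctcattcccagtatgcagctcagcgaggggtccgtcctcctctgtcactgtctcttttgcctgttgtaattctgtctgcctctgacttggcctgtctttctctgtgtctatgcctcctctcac

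The 4 promoters held different motifs. In Mmp13 the RUNX match began 149 bases before the start, PEA3 95, AP-1 66 and the TATA box 47 bases before it. Timp1 had the AP-1 variant 108 bases before its start, with PEA3 matches 94 and 230 bases and a GC box 142 bases before it. Mmp11 had 3 GC boxes, and Timp4 had 1 PEA3 match. Of all 33469 promoters in the same window, 4.05% held the AP-1 letters, 2.38% the variant, 14.5% RUNX, 29.5% PEA3, 12.9% the TATA box and 30.5% the GC box. A match is a description of letters only.

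**Figure D1:**
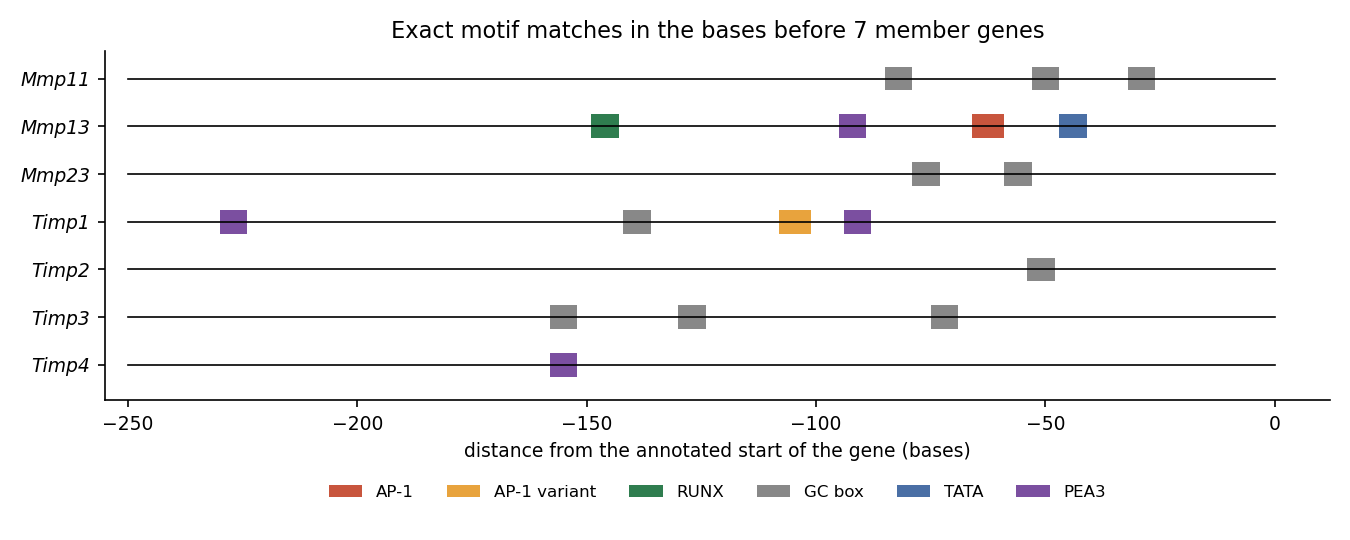
Exact motif matches (coloured boxes) over the 250 bases before the annotated start of 7 member genes, with the distance from the start in bases on the horizontal axis. Mmp13 is the promoter with an AP-1, a RUNX and a TATA match, and GC boxes are the only matches in Mmp11, Mmp23, Timp2 and Timp3.

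Array probes are 60 bases long, and their places are given on build rn4, as the array files do. The Timp1 probe maps over 1004 bases of the genome (chrX:12542700-12543703), so its 60 bases are not contiguous there. The Timp1 probe is shown because the Timp1 result rests on it, and the dimmer of the 2 Timp4 probes because it measured the Timp4 difference a second time.
Timp1 probe: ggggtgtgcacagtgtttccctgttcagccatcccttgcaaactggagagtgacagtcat
Timp4 dimmer probe, chr4:151375800-151375859: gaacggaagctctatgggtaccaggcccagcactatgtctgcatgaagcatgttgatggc

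Levels are log2 processed signal minus the array's 75th percentile, so that 0 is that percentile on every array. A gene with several probes is given by its brightest. Of the 10 genes, 3 passed limma at an adjusted p under 0.05 over all tested probes, against 34.2% of 25303 probes. Timp1 was lower in arrays labelled PMSG, and Mmp11 and Timp4 were higher. The same 3 genes were those whose values did not overlap between the labels, against 36.6% of probes, and each differed by at least 2-fold, against 11.8%. The median log2 difference was -0.14 over the 10 genes and 0.11 over all tested probes. Shares of 3 in 10 lie near these backgrounds for the call and the overlap, so the number called says nothing particular about the family. These are whole-organ samples, in which fewer cells of a type and less RNA per cell cannot be told apart.

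**Figure D2:**
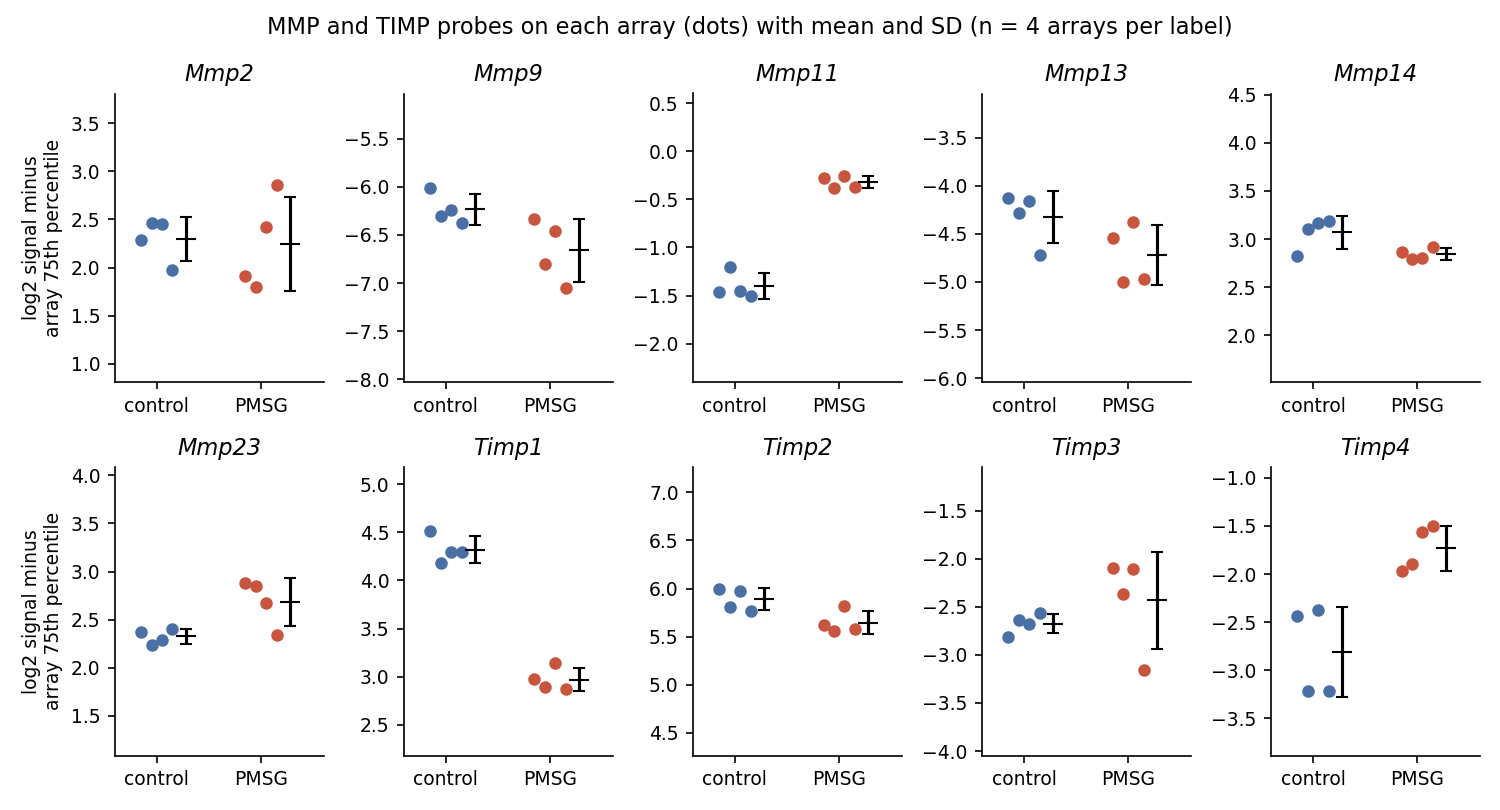
Level of each of the 10 genes (log2 signal minus the array's 75th percentile) on the 4 control and 4 PMSG arrays, one dot per array in replicate order, with mean and SD beside them, each panel spanning 3 log2 units. Timp1, Mmp11 and Timp4 are separated between the labels, and the other 7 genes overlap.

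Among the proteases, only Mmp11 passed the test, and 5 of 6 did not. Mmp11 encodes stromelysin-3, an MMP that is activated inside the cell by furin-type proteases. Its levels were -1.46, -1.20, -1.45 and -1.50 on control arrays 1 to 4, and -0.28, -0.38, -0.26 and -0.37 on PMSG arrays 1 to 4. Every PMSG array lay above every control array. The means were -1.40 ± 0.14 (SD, n = 4) and -0.32 ± 0.064 (SD, n = 4), which differ by 1.08 on the log2 scale (SE 0.099) or 2.11-fold, with an adjusted p of 2.23e-04 from limma. The probe lies at chr20:13138152-13138211.

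The membrane-bound protease Mmp14, known as an activator of the Mmp2 precursor, stood at 2.82, 3.10, 3.17 and 3.19 on control arrays. It stood at 2.87, 2.79, 2.80 and 2.92 on PMSG arrays, so that control array 1 lay among the PMSG arrays and the other 3 above them. PMSG minus control was -0.23 on the log2 scale (SE 0.11, limma adjusted p = 0.141), with a 95% interval from -0.48 to 0.024 before adjustment. On its 10 spots per array, the SD between usable spots ran from 0.014 to 0.11.

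Mmp2, the gelatinase that cuts denatured collagen and basement membrane collagen, gave 2.29, 2.46, 2.45 and 1.97 on control arrays and 1.91, 1.80, 2.42 and 2.86 on PMSG arrays. PMSG array 4 had the highest level of all 8 and PMSG array 2 the lowest, so that the PMSG arrays spanned the whole control range. PMSG minus control was -0.049 (SE 0.24; adjusted p from limma 0.887; 95% interval -0.61 to 0.51). A dimmer probe of Mmp2 had a difference of -0.41 (SE 0.27, limma adjusted p = 0.271), also with its highest PMSG value, 0.42, on array 4. The summed signal of 9 fibroblast and smooth muscle markers, in multiples of the array's 75th percentile, was 49.0, 61.8, 73.7 and 46.7 on control arrays and 52.2, 53.5, 68.9 and 85.7 on PMSG arrays. None of these markers was below background. Of the 9, 3 rose and none fell, where 17.6% of all tested probes rose and 16.6% fell. That sum was also highest on PMSG array 4, and its part in the Mmp2 values was not tested.

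Mmp9, the other gelatinase and a product of neutrophils and macrophages among other cells, was close to background. Of its 10 spots, 6 to 8 were well above background on control arrays and 1 to 5 on PMSG arrays. Levels were -6.01, -6.30, -6.24 and -6.38 on control arrays and -6.33, -6.80, -6.46 and -7.05 on PMSG arrays. The labels overlapped, and differed by -0.43 (SE 0.17; adjusted p from limma 0.0914). By a share of at least 0.5 of its spots, the probe was well above background on 4 control arrays and 1 PMSG array. Its fitted difference is therefore no measure of a fold, and no lower bound is given, as the gene did not pass. With normexp background correction the difference was 0.040, and with quantile normalization -0.76 (limma adjusted p = 0.00142). The summed signal of 8 neutrophil markers, none of them below background, ran from 0.548 to 1.37 on control arrays and from 0.526 to 1.04 on PMSG arrays. Of these markers Np4 rose (1.52) and S100a8 fell (-1.97), where 17.6% of all tested probes rose and 16.6% fell. The other 6 did not pass. The part of this sum in the Mmp9 values was not tested.

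Mmp13, a collagenase that cuts fibrillar collagen, gave -4.13, -4.28, -4.16 and -4.72 on control arrays and -4.54, -5.00, -4.38 and -4.97 on PMSG arrays. Control array 4 lay within the PMSG range. PMSG minus control was -0.40 (SE 0.19; adjusted p from limma 0.143; 95% interval -0.84 to 0.044). It was -0.64 with quantile normalization (limma adjusted p = 0.00696) and -0.11 with normexp background correction (limma adjusted p = 0.527).

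Mmp23, a membrane-anchored MMP found mainly in reproductive tissues, gave 2.37, 2.24, 2.29 and 2.40 on control arrays and 2.88, 2.85, 2.67 and 2.34 on PMSG arrays. PMSG array 4 alone fell among the control arrays. PMSG minus control was 0.36 (SE 0.13; adjusted p from limma 0.0681). Without PMSG array 4 it was 0.48 and passed (limma adjusted p = 0.00742), whereas median centring gave 0.19 (limma adjusted p = 0.273).

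Of the inhibitors, Timp1 fell, Timp4 rose, and Timp2 and Timp3 did not pass. Timp1 is a secreted, inducible inhibitor that gonadotropins are known to raise in ovary. It stood at 4.51, 4.18, 4.29 and 4.30 on control arrays and at 2.98, 2.89, 3.14 and 2.87 on PMSG arrays. Every PMSG array lay below every control array. The means were 4.32 ± 0.14 (SD, n = 4) and 2.97 ± 0.12 (SD, n = 4), which differ by -1.35 on the log2 scale (SE 0.11) or 2.55-fold, with an adjusted p of 1.43e-04 from limma. Of all tested probes, 93.2% had a smaller absolute difference. The SD between the 10 spots on an array was at most 0.071.

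Timp4, an inhibitor known for restricted expression, adipose tissue and heart included, gave -2.44, -3.21, -2.37 and -3.22 on control arrays and -1.97, -1.90, -1.56 and -1.50 on PMSG arrays. The labels did not overlap, but the control arrays formed 2 pairs. The means were -2.81 ± 0.47 (SD, n = 4) and -1.73 ± 0.24 (SD, n = 4), which differ by 1.08 on the log2 scale (SE 0.24) or 2.11-fold, with an adjusted p of 0.00941 from limma. This brighter probe lies at chr4:151375657-151375716. The dimmer probe of Timp4, printed above, differed by 0.96 (SE 0.24, limma adjusted p = 0.0148) and showed the same pairs of control arrays, at -3.18 and -2.95 against -3.99 and -3.68.

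The higher pair of Timp4 control arrays, 1 and 3, lay in row 2 of the slide and the lower pair in row 1, whereas the PMSG arrays did not divide in this way. Within row 1 the log2 difference was 1.49 (limma adjusted p = 0.0261) and within row 2 it was 0.67 (limma adjusted p = 0.200), each from 2 arrays against 2. With the row as a block the adjusted p was 0.00746 (limma). The summed signal of 8 adipocyte markers, all above background, was 20.1, 6.52, 48.8 and 19.5 on control arrays and 38.3, 47.7, 54.8 and 20.1 on PMSG arrays. Among these markers 1 of 8 rose and none fell, where 17.6% of all tested probes rose and 16.6% fell. Control array 3 had the highest adipocyte sum and the highest Timp4 of its label, and control array 2 the lowest sum with a Timp4 of -3.21, whereas PMSG array 4 had the highest Timp4 and the lowest sum of its label. The part of adipocyte RNA in the Timp4 difference was not tested.

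Timp2, a constitutively made inhibitor that also helps Mmp14 to activate Mmp2, gave 6.0, 5.81, 5.97 and 5.77 on control arrays and 5.62, 5.56, 5.82 and 5.58 on PMSG arrays. Only PMSG array 3 reached the control range. PMSG minus control was -0.24 (SE 0.10; adjusted p from limma 0.103; 95% interval -0.48 to -0.0065). Median centring gave -0.41 (limma adjusted p = 0.0192).

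Timp3, the inhibitor that stays bound to the matrix, gave -2.81, -2.64, -2.68 and -2.57 on control arrays and -2.10, -2.37, -2.11 and -3.16 on PMSG arrays. PMSG arrays 1 to 3 lay above all control arrays and array 4 below them. PMSG minus control was 0.24 (SE 0.23; adjusted p from limma 0.442; 95% interval -0.29 to 0.77). Without PMSG array 4 it was 0.48 and passed (limma adjusted p = 0.0122), whereas median centring gave 0.071 (limma adjusted p = 0.788).

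**Figure D3:**
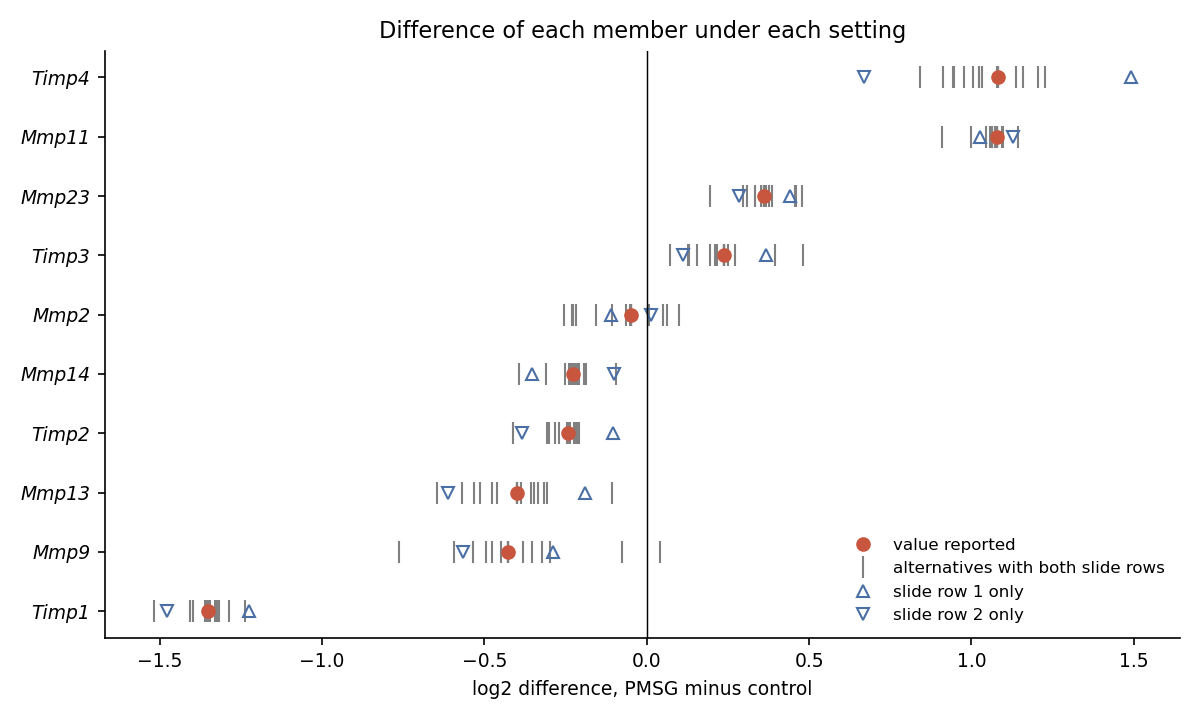
Log2 difference (PMSG minus control) of each of the 10 genes as reported (filled dots), under the alternatives that use both slide rows (bars) and within each slide row (triangles). Only Mmp2 and Mmp9 cross 0, while all other genes, called or not, keep their side of it in each of these settings.

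The calls of Timp1, Mmp11 and Timp4 were the same with quantile normalization and with median centring. The smaller differences depended on the scaling. With quantile normalization 7 genes passed, 3 higher and 4 lower, where 9050 of all 25303 tested probes passed. With median centring 6 genes passed, 2 higher and 4 lower, where 8448 of 25303 probes passed. Over all probes, 4452 were higher and 4206 lower as scaled here, and 2914 higher and 5534 lower with median centring, where the median over all tested probes moved from 0.11 to -0.05. Without PMSG array 4, 5 of the 10 genes passed, where 11382 of 25303 probes passed.

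Of 17 further MMP genes, 16 were on the array by name and 11 were tested, of which 2 rose and 5 fell, where 34.2% of all probes were called. The median log2 difference was -0.78, against 0.11 over all probes. Mmp3, stromelysin-1, a protease of broad specificity, gave -3.89, -3.42, -3.32 and -4.15 on control arrays and was well above background on 0 of 4 PMSG arrays. It was at least 6.53-fold lower in arrays labelled PMSG. In this bound each dim array counts at its lowest spot well above background, or at the probe's own value if higher. The limma adjusted p of 1.93e-04 belongs to the fitted difference, which is no measure of the fold, and the bound was not tested. Mmp3 met the filter for testing only through the 4 control arrays. Mmp12, the macrophage elastase, was above background on all PMSG arrays, at -4.86, -4.84, -4.85 and -5.73, and on 1 control array. It was at least 2.69-fold higher, again a bound that was not tested, and its fitted difference had a limma adjusted p of 0.00100. Mmp7, matrilysin, an MMP typical of epithelia, gave 2.34, 1.75, 2.56 and 1.93 on control arrays and -0.75, -0.53, 1.34 and 1.08 on PMSG arrays. The groups did not overlap, and differed by -1.86 (SE 0.49; adjusted p from limma 0.0208). Mmp7 lost its call without control array 1 (-1.80, limma adjusted p = 0.0522), control array 3 (-1.72, 0.0544) or PMSG array 2 (-1.59, 0.0529).

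The other 4 MMPs past the threshold are named because of their values. They were Mmp19 at -1.67, the membrane-anchored Mmp24 and Mmp17 at -0.78 each, and the membrane-bound Mmp16 at 1.14, with limma adjusted p-values from 3.04e-04 to 0.0109. Of 13 macrophage and leukocyte markers 5 rose and none fell, where 17.6% of all tested probes rose and 16.6% fell. They summed to between 26.9 and 32.5 on control arrays and between 32.6 and 38.2 on PMSG arrays. Lyz2, the brightest of them, differed by 0.058 and did not pass. Cd163 (-0.54), Mrc1 (-0.36) and Cd14 (-0.29) were lower and did not pass either. Markers of oviduct epithelium, of which 6 of 8 rose where 17.6% of all tested probes did, summed to between 15.6 and 21.1 and to between 28.5 and 43.1. Krt18, the brightest of them and so the heaviest in the sum, rose by 0.68, while Krt8 (0.016) and Epcam (0.45) did not pass. The parts of both marker lists in the MMP differences were not tested.

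**Figure D4:**
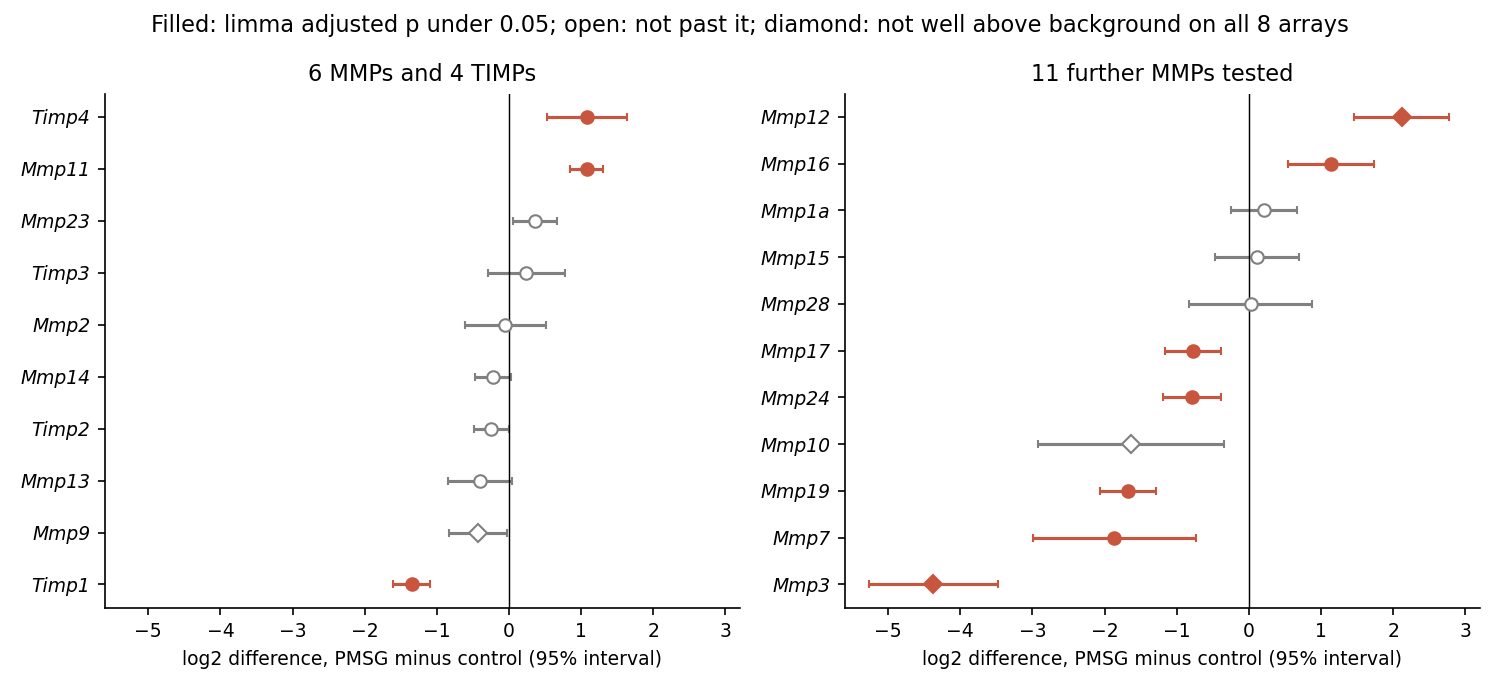
Log2 difference (PMSG minus control) with its 95% interval before adjustment for the 10 genes (left) and for the 11 further MMPs tested (right). Diamonds mark probes that were not well above background on all 8 arrays, whose fitted difference is no measure of the fold. Differences run from -1.35 to 1.08 on the left and from -4.37 to 2.12 on the right.

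Of 12 tested genes for activation, docking and clearance of MMPs, 4 fell and 1 rose, with a median log2 difference of 0.010, where 34.2% of all probes were called. Spock2, a secreted proteoglycan, fell by 0.74 (SE 0.12, limma adjusted p = 0.00230). The convertase Pcsk5 fell by 0.62 (SE 0.13, limma adjusted p = 0.00824). Thbs2, the matrix protein thrombospondin-2, by which Mmp2 is cleared, fell by 0.84 (SE 0.26, limma adjusted p = 0.0377). It lost its call on leaving out any 1 of 7 arrays, all but PMSG array 4, with log2 differences from -0.92 to -0.67 in those 7 fits and adjusted p-values up to 0.0926 (limma). Pcsk6, at 0.49, and Cd44, at -0.58, also passed and are named because of their values. Other probes of Cd44 had differences of 0.37 and 0.88 and did not pass. Furin (0.27), the membrane inhibitor of MMPs Reck (0.0072) and the MMP inducer Bsg (-0.15) did not pass.

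Among the ADAM and ADAMTS proteases, relatives that TIMPs can also block, 4 of 18 tested genes fell and 2 rose, also near the 34.2% of all probes called. Their median log2 difference was -0.15. Adamts3, a procollagen-processing protease, was above background on 4 control arrays and 1 PMSG array. It was at least 3.94-fold lower in arrays labelled PMSG, a bound that was not tested. Its fitted difference, no measure of the fold, had a limma adjusted p of 7.51e-05. Adamts9, a proteoglycan-cutting protease, fell by 1.44 (SE 0.15, limma adjusted p = 3.19e-04). Adam8, typical of leukocytes, rose by 1.66 (SE 0.27, limma adjusted p = 0.00239). The other 3 past the threshold, named because of their values, were Adamts1 at -1.31, Adam19 at -0.64 and Adamts5 at 0.79. A dimmer Adam19 probe passed in the opposite direction, at 0.97 (limma adjusted p = 0.0392), so the direction of Adam19 depends on the probe.

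Of 24 tested genes for matrix proteins that these enzymes cut, 5 fell and 3 rose, a share near the 34.2% of all probes called. Their median log2 difference was -0.20. Basement membrane collagen was lower, Col4a1 by 0.85 (SE 0.088, limma adjusted p = 3.34e-04) and Col4a2 by 1.06 (SE 0.13, limma adjusted p = 6.66e-04), and the proteoglycan gene Vcan fell by 0.91 (SE 0.15, limma adjusted p = 0.00256). Tnc, at -0.84, and Col5a1, at -0.74, also fell, and Lamb2 (0.61), Col3a1 (0.35) and Bgn (0.30) rose, all named because of their values. With median centring none of these 3 rises passed. Dimmer probes of Col4a1 (-0.49) and Bgn (0.13) did not pass, whereas dimmer probes of Lamc1 (-0.81) and Nid2 (1.16) passed where the brightest did not. Col3a1 lost its call on leaving out any 1 of 7 arrays (log2 difference 0.31 to 0.40 in those fits, limma adjusted p up to 0.121), all but PMSG array 1. Bgn did so without control array 2, 3 or 4 or PMSG array 2 (0.27 to 0.30, limma adjusted p up to 0.0769).

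Of 16 tested transcription factors known at MMP promoters, 6 fell and 1, Sp1 at 0.34, rose, with a median log2 difference of -0.36, where 34.2% of all probes were called. The RUNX factor Runx2 gave 3.00, 2.44, 2.85 and 2.78 on control arrays and -2.27, -2.25, -3.25 and -2.47 on PMSG arrays, which differ by -5.33 (SE 0.24; adjusted p from limma 1.69e-05). Other Runx2 probes had differences of -0.36 and -0.66 and did not pass. Runx1, at -1.05 (SE 0.14, limma adjusted p = 9.10e-04), also fell, whereas Runx3 (0.016) did not pass. Egr1 fell by 1.02 (SE 0.24, limma adjusted p = 0.0125). Junb, a subunit of AP-1, fell by 1.40 (SE 0.25, limma adjusted p = 0.00336), and Cebpb fell by 1.24 (SE 0.19, limma adjusted p = 0.00173). Fos, Jun and Jund, other AP-1 subunits, had differences of -0.15, 0.17 and 0.13 and did not pass. Sp1 lost its call on leaving out any control array or PMSG array 1 or 2 (log2 difference 0.28 to 0.37 in those fits, limma adjusted p up to 0.107), and its dimmer probe differed by -0.089 and did not pass. Fosl2, 1 of the 6 that fell, lost it without control array 1, 3 or 4 or PMSG array 3 (-0.56 to -0.47, limma adjusted p up to 0.0838). Mmp13, whose printed promoter holds both an AP-1 and a RUNX match, had the difference of -0.40 given above and did not pass.

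Likeness of profiles was measured as the root-mean-square difference between 2 genes over the 8 arrays, after each gene's own mean was subtracted, among 15344 named genes well above background on all arrays. The genes nearest to Timp1 were Fdft1 (0.0879), which encodes squalene synthase, and LOC689519 (0.0894). Nearest to Mmp11 were Crocc (0.0630) and Patz1 (0.0677), and to Timp4 Ptprz1 (0.100) and Spata18 (0.138). Nearest to Mmp2 were Tpm2 (0.0966), a tropomyosin gene of muscle cells, and Gckr (0.119), and to Mmp13 Defb27 (0.0878) and Camp (0.113), both genes of antimicrobial peptides. The first genes for Mmp14, Mmp23, Timp2 and Timp3 were Npepo (0.0586), RGD1564325 (0.0512), Aurkaip1 (0.0452) and LOC691285 (0.0853). These are descriptions of 8 arrays in 2 groups and carry no test.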

How the data were processed

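The deposited scanner files give the spot intensity of 8 arrays, extracted with Agilent Feature Extraction 11.5.1.1, per the file headers. The deposited table of log2 values was compared with them: each column matched its own array best, with its 75th percentile near 0 (0.0061 to 0.014), medians from -3.21 to -2.82 and no centring of probes. Columns left unused numbered 0. Outlier and control spots were dropped, log2 processed signals were averaged per probe, and each array's 75th percentile was subtracted. A further 17 probes lacked a usable spot on at least 1 array and were left out. A probe was tested if at least 0.5 of its spots were well above background on at least 4 arrays. The comparison used lmFit and eBayes of limma 3.58.1 (R 4.3.3) without covariates (Benjamini-Hochberg adjustment over 25303 probes, threshold 0.05), and the procedure was tested on simulated data. Each member is given by its brightest probe; from each other list the 3 genes with the largest difference past the threshold are named, and 2 nearest profiles per member. Members and lists were chosen with earlier results of these data known. No spot was saturated, and 4 arrays per group limit the precision. Alternatives were normexp (offset 50), quantile normalization, median centring over all probes, deposited values, 2 filters, blocks, array weights and leaving out each array. Some listed genes not found by name were not analysed here.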

Additional observations from a re-analysis of the deposited data

Results flagged for a closer look

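Over 24 groups of 4 values, made of 12 probes under both labels, 1 had an array far from the others, where chance alone gives about 1 in 20 groups, here 1.2. For Mmp11 the control array 2 lay at -1.20 against -1.50 to -1.45 on the other control arrays, a gap of 0.847 of the group's range. Without that array the call of Mmp11 held, as it did on leaving out each of the 8 arrays in turn (log2 difference 1.05 to 1.14, limma adjusted p from 5.29e-04 to 0.00140).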

How the results depend on the processing

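Of 199 values of the 10 genes under alternatives, 179 kept their direction and their side of the threshold, 10 passed where the reported value had not, 3 no longer passed (Mmp11, Timp1 and Timp4 within slide row 2, with 2 arrays against 2) and 7 changed sign. The count of genes past the threshold, 3, was 7 with quantile normalization, 6 with median centring and 3 to 5 when 1 array was left out. Over all probes, 9050 passed with quantile normalization, 8448 with median centring and 6552 to 11382 when 1 array was left out. Sign changes were those of Mmp9 with normexp correction (0.040) and of Mmp2 with quantile normalization (0.051) and within slide row 2 (0.012). Mmp2 also changed sign without control array 2 or 3 or PMSG array 1 or 2. Over all 8 fits with 1 array left out, Mmp2 ran from -0.25 to 0.10. Neither gene passed as reported. With the mean of a gene's probes, Cd44 was at 0.22 and Adam19 at 0.16, because their probes disagree. Matrix genes past the threshold numbered 5 with median centring. With normexp correction (offset 50), differences of dim probes were smaller: Mmp3 was at -1.04, Mmp12 at 0.54 and Adamts3 at -0.60. The mean of the 3 Runx2 probes differed by -2.12. The replicate block left 3 genes and 7346 probes past the threshold, against 8658 probes. Same-numbered arrays had deviations that correlated at 0.044, 0.036, 0.18 and -0.019. Differently numbered arrays were not compared in this way, so these values cannot decide whether the numbers pair the arrays. The slide and the scan day as a block were not run, since all arrays share 1 of each. Within-row values and the alternatives for the other lists were chosen after seeing the data.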
